A study of Mus musculus with 4 samples.

Results

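The 10 genes described here were grouped as mesenchymal and preadipocyte commitment transcription factors: the zinc-finger factors Zfp423 and Zfp521, the GATA factors Gata2, Gata3 and Gata6, the basic helix-loop-helix factors Twist1 and Twist2, the homeobox factors Meox1 and Meox2, and the T-box factor Tbx15. They were chosen by name, and all 10 were found among 22463 genes with a symbol in the RNA-Seq files, each with 1 RefSeq transcript. The cells were brown preadipocytes of strain C57BL/6J, taken from the interscapular brown fat of E18.5 embryos and immortalized with SV40 T antigen. All of them carried Mll3-/- and Mll4 f/f, alleles of a pair of histone H3K4 methyltransferases that act on enhancers. The control cells, infected with adenoviral GFP (Ad-GFP), lack MLL3 and keep MLL4, although the labels call them WT. The MLL4-deficient cells, infected with adenoviral Cre (Ad-Cre), are MLL3-/-;MLL4-/-. RNA-Seq was done at day 0 and at day 2 of adipogenesis, induced after confluence with insulin, T3, indomethacin, dexamethasone and IBMX, with 1 library for each of the 4 conditions. The comparisons therefore asked how these factors changed as preadipocytes entered adipogenesis, and how their levels differed once MLL4 was also deleted. There is no replicate, so no test was possible, and the intervals given below cover counting error of the reads only.

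Commitment to the fat lineage passes from a mesenchymal progenitor to a preadipocyte and then to a fat cell. Zfp423 marks committed preadipocytes and favours the switch to PPARγ expression, while its paralog Zfp521 and the GATA factors Gata2 and Gata3 are known to restrain that switch. Twist1, Twist2, Meox1, Meox2 and Tbx15 are factors of the embryonic mesoderm and its derivatives, the tissue from which brown fat of the interscapular depot arises.

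Between 15831915 and 22099995 reads were counted on transcripts per library. Of 15 preadipocyte and mesenchymal markers, between 13 and 15 were above 1 RPKM (reads scaled to exon length and to the mapped reads of the library) in each library, and the summed RPKM of all 15 ran from 882 to 4372. The skeletal muscle, endothelial, blood and epithelial markers summed to at most 1.29 RPKM per list and library, with Myog, Pax7, Ptprc and Cdh1 at no read and Cd68 not found. Most of that maximum was the muscle marker Des, with 49 reads (1.26 RPKM) in the Ad-Cre library of day 2. Des had 19 and 5 reads in control cells and 0 in MLL4-deficient cells at day 0. Its log2 ratio of MLL4-deficient to control cells at day 2 was 3.64. Reads on the whole Mll4 transcript (listed as Kmt2d) were 6304 and 8530 in control cells and 6316 and 5595 in MLL4-deficient cells at day 0 and day 2. Those on Mll3 (Kmt2c) were 522 and 1224 and, in MLL4-deficient cells, 463 and 451. Counts over a whole transcript do not separate altered exons from the rest and check neither allele. The Ad-Cre library of day 2 stood apart by transcript length and GC content. The median log2 ratio of MLL4-deficient to control cells at day 2 was 0.45 in the shortest and −0.77 in the longest eighth of genes, and −0.69 in the lowest and 0.61 in the highest eighth by GC content. At day 0 these medians lay between −0.13 and 0.08. For ratios of a factor between this and another library, the value after division by its trend over length and GC content is also given. In the day ratio of control cells the medians were 0.34 in the lowest and −0.07 in the highest eighth by GC content. By length they were 0.16 in the shortest and 0.12 in the longest. Control day ratios of the factors are as deposited unless stated, as are ratios of paired factors within a library. Medians and ratios of other genes are as deposited unless stated.

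Twist1, Twist2 and Tbx15 were the most abundant of the factors in this order in every library, per length. Twist1 lay at 51.0 and 40.1 RPKM in control cells and 50.7 and 93.02 RPKM in MLL4-deficient cells at day 0 and day 2, above 91.7%, 87.6%, 91.4% and 95.8% of the genes expressed over 1 RPKM. At the other end, Meox2 had no more than 11 reads in any library and Gata3 no more than 62. Twist1 and Twist2 were closest in MLL4-deficient cells at day 0, at 50.7 and 46.8 RPKM. The middle order was less firm: Gata2 and Zfp521 had overlapping Poisson 95% intervals at day 0 in control cells (14.5 to 16.5 and 13.7 to 15.2 RPKM) and in MLL4-deficient cells (9.56 to 11.2 and 9.76 to 10.9 RPKM). Of the 10 factors, 8 were above 1 RPKM in control cells at day 0 and 7 in each other library.

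**Figure D1:**
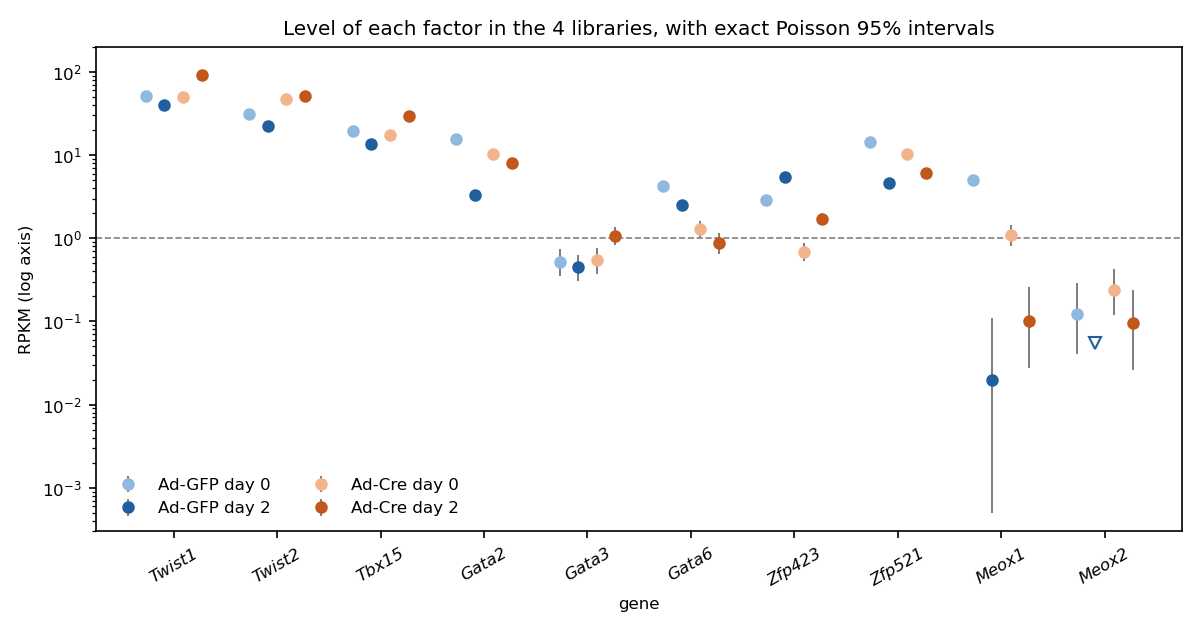
Level of each of the 10 factors in RPKM on a log axis, with 1 point per library and the exact Poisson 95% interval of its reads as a bar; the dashed line is 1 RPKM, and the open triangle is the level that 3 reads would give for Meox2, which had no read in Ad-GFP cells at day 2. Twist1 sits highest in all 4 libraries, at 40.1 to 93.02 RPKM, and Meox1 drops from 5.06 to 0.0197 RPKM between the Ad-GFP libraries.

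Across the comparisons, a gene was called where its ratio of RPKM was past 2.5-fold and it was above 1 RPKM in either library, with the study's cutoffs applied here to 1 transcript per gene. Shares and medians over all genes are over those above 1 RPKM in either library of the ratio, unless stated. From day 0 to day 2 in control cells, 3 of 8 expressed factors were called lower (Meox1, Gata2 and Zfp521) and 0 higher, where 12.7% of 11541 genes were called lower and 8.38% higher. The median log2 ratio of the 8 was −0.65, against 0.15 over all genes. From day 0 to day 2 in MLL4-deficient cells, 1 of 9 was called lower (Meox1) and 0 higher, where 10.2% of genes were called lower and 9.14% higher, and the median log2 ratio of the 9 was 0.14 against −0.01 over all genes. With the trend divided out the median of the 9 was −0.24, so its sign depended on this division. Between MLL4-deficient and control cells at day 0, 3 of 8 were called lower in MLL4-deficient cells (Zfp423, Gata6 and Meox1) and 0 higher, where 3.67% of genes were called lower and 1.83% higher. At day 2, 2 of 8 were called lower in MLL4-deficient cells (Zfp423 and Gata6) and 0 higher, where 9.88% of genes were called lower and 8.81% higher. At day 2 a further 5 factors were between 2.18-fold and 2.45-fold higher in MLL4-deficient cells, just short of the cutoff, and the median log2 ratio of the 8 was 1.16 against −0.15 over all genes. Scaling by TMM factors moved that median over all genes to 0.01 and put 4 of those 5 past the cutoff. With the trend divided out, the median of the 8 was 0.77 and 2 of the 5 (Gata3 and Tbx15) were past it. Shares over all genes are given for the deposited values only. The counts with TMM factors or the trend divided out therefore have no share to be set against. With few members, these counts are a description, and the day ratios and the ratios between cells share libraries.

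**Figure D2:**
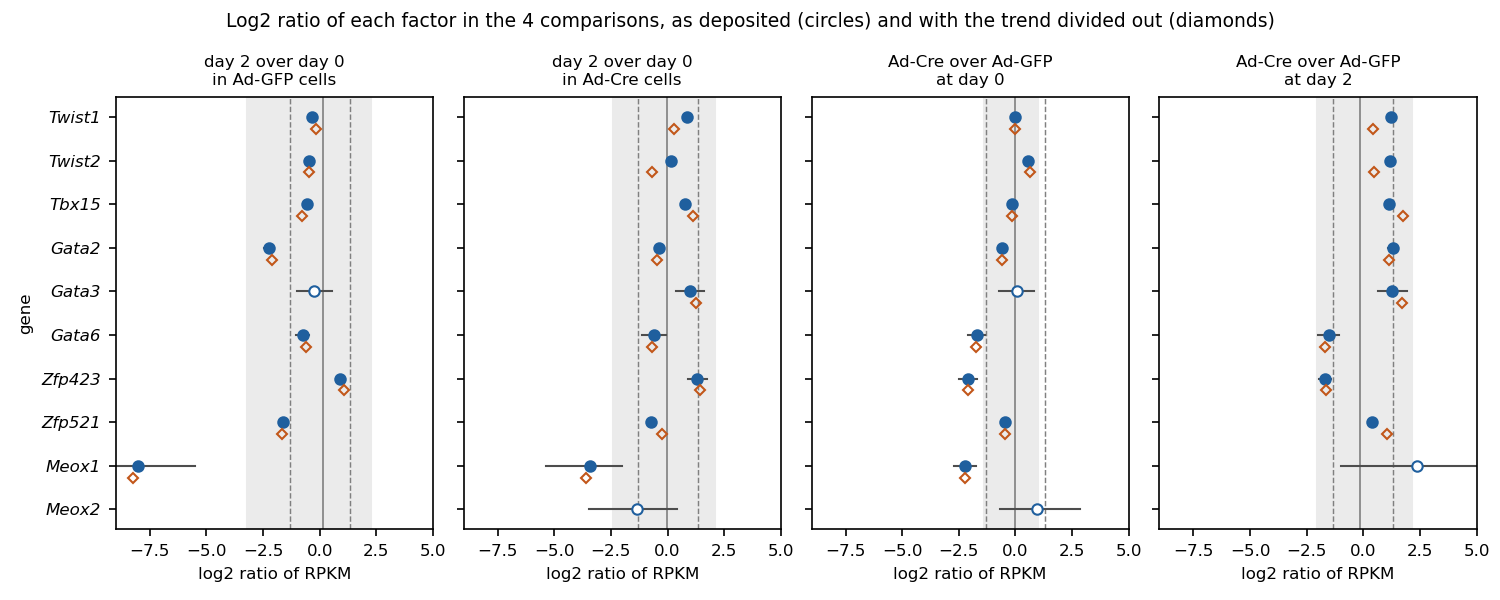
Log2 ratio of RPKM for each factor in the 4 comparisons, with circles for the deposited values, bars for the exact binomial 95% interval and diamonds for the ratio after division by its trend over length and GC content. Open circles mark factors below 1 RPKM in both libraries, dashed lines the 2.5-fold cutoff and grey bands the central 95% of genes with at least 100 reads. The solid line is the median of all genes above 1 RPKM in either library. Bars that leave the panels are clipped, and pairs with a library at no read are left out. Zfp423 and Gata6 lie left of the cutoff in both panels of Ad-Cre over Ad-GFP, at log2 ratios of −1.53 to −2.08.

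Zfp423, a zinc-finger coregulator of BMP and EBF signalling in preadipocytes, lies on the minus strand of chromosome 8 at 90185709 to 90483494 of NCBI37/mm9 (NM_033327). It was counted at 246 reads at day 0 and 621 at day 2 in control cells (2.91 and 5.51 RPKM), and at 66 and 151 reads in MLL4-deficient cells (0.689 and 1.71 RPKM). Both Ad-Cre libraries lay below both Ad-GFP libraries, and day 2 lay above day 0 in both kinds of cells. The log2 ratio of MLL4-deficient to control cells was −2.08 at day 0 (exact binomial 95% confidence interval −2.49 to −1.68) and −1.69 at day 2 (−1.96 to −1.43), or 4.23-fold and 3.23-fold lower. Dividing out the trend left the day 2 value at −1.65. With day, the log2 ratio was 0.92 in control cells (0.70 to 1.14) and 1.31 in MLL4-deficient cells (0.88 to 1.75), the latter being 1.43 and past the cutoff with the trend divided out. These differed by 0.39 with an interval of −0.09 to 0.88, which includes no difference. The neighbouring gene Cnep1r1 differed by no more than 0.09 on the log2 scale between MLL4-deficient and control cells at either day.

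Its paralog Zfp521 (NM_145492; chromosome 18, 13845522 to 14131242, minus strand) went the other way with time. It was counted at 1527 and 662 reads in control cells (14.4 and 4.68 RPKM) and at 1239 and 686 reads in MLL4-deficient cells (10.3 and 6.18 RPKM). Day 2 was lower than day 0 in both, with a log2 ratio of −1.62 in control cells (−1.76 to −1.49) and −0.74 in MLL4-deficient cells (−0.88 to −0.60). The latter was −0.24 after division by the trend. Between the cells, the log2 ratio of MLL4-deficient to control cells was −0.48 at day 0 (−0.59 to −0.37) and 0.40 at day 2 (0.25 to 0.56), the latter being 1.06 with the trend divided out.

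The balance of the pair within a library does not rest on the scaling between libraries, but it can still carry the trend over length and GC content. For MLL4-deficient over control cells at day 2, the fitted log2 trend was −0.66 for Zfp521 and −0.04 for Zfp423. The ratios of the pair below are as deposited. Per length, Zfp521 was at 4.95 times the level of Zfp423 in control cells at day 0 (95% interval 4.33 to 5.69) and at 0.850 times at day 2 (0.761 to 0.950). In MLL4-deficient cells the ratio was 15.0 at day 0 (11.7 to 19.5) and 3.62 at day 2 (3.03 to 4.35). Zfp423 was thus the more abundant of the pair in the Ad-GFP library of day 2, and Zfp521 in the other 3. Of 4858 windows of 50 bases along the annotated Zfp423 transcript, 64 (1.32%) match Zfp521 with at most 2 mismatches, so few stretches could share reads.

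The list of partners of Zfp423 and Zfp521 held 19 genes of EBF and BMP signalling, all found. For comparison, 12.7% of all genes were called lower and 8.38% higher with day in control cells, and 10.2% and 9.14% in MLL4-deficient cells. Called lower and higher in MLL4-deficient than in control cells were 3.67% and 1.83% at day 0 and 9.88% and 8.81% at day 2. In control cells 4 of 15 expressed partners were over 2.5-fold lower at day 2 and 0 higher: Bmp4, and the BMP-responsive genes Id3, Smad6 and Smad7, which encode inhibitors of helix-loop-helix factors and of SMAD signalling. Id3 lay at 125 and 44.5 RPKM in control cells and 169 and 161 RPKM in MLL4-deficient cells at day 0 and day 2. Smad6 lay at 10.4 and 3.62 RPKM in control cells and 15.3 and 16.7 RPKM in MLL4-deficient cells. Id3, Smad6 and Smad7 were the 3 of 13 partners called higher in MLL4-deficient cells at day 2, with log2 ratios of 1.86, 2.20 and 1.41, while 1 (Bmpr2) was lower. With the trend divided out Smad6 and Smad7 kept their call at 1.60 and 1.41, Id3 lost it at 1.17, and Bmpr2 lost it as well. In MLL4-deficient cells 4 of 16 partners were lower at day 2 (Smad9, Bmpr1b, Bmpr2 and Bmp4). Smad9 lost this call after division by the trend, at −1.25 and Ebf2 was called higher, at 1.55. At day 0, 1 of 16 (Bmp4) was higher in MLL4-deficient cells. The median log2 ratio of the list was −0.16 and −0.57 with day in control and MLL4-deficient cells, and 0.24 and −0.26 between the cells at day 0 and day 2.

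Gata2, which holds preadipocytes from differentiation, lies on the plus strand of chromosome 6 at 88143885 to 88157024 (NM_008090). It was counted at 863 reads at day 0 and 244 at day 2 in control cells (15.5 and 3.27 RPKM), and at 654 and 469 reads in MLL4-deficient cells (10.3 and 8.02 RPKM). The Ad-GFP library of day 2 was the lowest of the 4, 4.73-fold below day 0 (log2 ratio −2.24, interval −2.45 to −2.03). In MLL4-deficient cells the day ratio was −0.37 (−0.54 to −0.19; −0.46 with the trend divided out), 1.29-fold lower. The day ratios differed by 1.88 on the log2 scale (1.60 to 2.15), as deposited the largest such difference among the factors with at least 20 reads in every library, and by 1.65 after division by the trend. At day 2 Gata2 was 2.45-fold higher in MLL4-deficient than in control cells (log2 ratio 1.29, interval 1.07 to 1.52; 1.12 with the trend divided out), while at day 0 the log2 ratio was −0.58 (−0.73 to −0.43).

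Gata3 and Gata6 were at lower levels. Gata3 (NM_008091; chromosome 2, 9778705 to 9811661, minus strand), like Gata2 a restraint on fat cell differentiation, had 29 and 33 reads in control cells and 34 and 62 reads in MLL4-deficient cells (0.524, 0.447, 0.542 and 1.07 RPKM). Only the Ad-Cre library of day 2 passed 1 RPKM, and its Poisson interval of 0.820 to 1.37 RPKM includes 1. The log2 ratio of MLL4-deficient to control cells at day 2 was 1.26, with a wide interval of 0.63 to 1.92, and 1.70 with the trend divided out. Gata6 (NM_010258; chromosome 18, 11052508 to 11085633, plus strand), best known from endoderm and heart development, had 232 and 184 reads in control cells and 81 and 50 in MLL4-deficient cells (4.22, 2.51, 1.30 and 0.868 RPKM). Like Zfp423, it was lower in both Ad-Cre libraries than in both Ad-GFP libraries. The log2 ratio of MLL4-deficient to control cells was −1.70 at day 0 (−2.08 to −1.33) and −1.53 at day 2 (−2.01 to −1.07; −1.70 with the trend divided out). The day ratios of −0.75 and −0.58 (the latter −0.67 with the trend divided out) differed by 0.17, with an interval of −0.44 to 0.78 that includes no difference. Both genes that flank Gata6 had their lowest level in the Ad-Cre library of day 2, with log2 ratios of MLL4-deficient to control cells of −1.496 for Mib1 and −0.45 for Rbbp8 at day 2, but of 0.12 and 0.40 at day 0.

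Within a library, Gata2 stood at 3.66 times the level of Gata6 at day 0 and 1.31 times at day 2 in control cells, and at 7.95 and 9.24 times in MLL4-deficient cells. The intervals of the Ad-Cre libraries (6.30 to 10.1 and 6.89 to 12.6) lay above those of the Ad-GFP libraries (3.17 to 4.25 and 1.07 to 1.59). Of the other GATA genes, Gata1, Gata4 and Gata5 were below 1 RPKM in all 4 libraries, with Gata4 highest at 0.189 RPKM. Of 8 GATA relatives and cofactors, 4 were expressed, and 1 (Zfpm2, a FOG cofactor) was called lower with day in control cells, at 12.7 and 4.85 RPKM, with 0 higher. Over all genes, 12.7% were called lower and 8.38% higher there. None of the 4 was called with day in MLL4-deficient cells, where 10.2% of all genes were called lower and 9.14% higher. None was called between the cells at day 0, where 3.67% of all genes were called lower and 1.83% higher. At day 2, 1 (Ldb1) was called higher in MLL4-deficient cells, where 8.81% of all genes were called higher and 9.88% lower. With the trend divided out, that call of Ldb1 was not made. No window of 50 bases matched between Gata2, Gata3 and Gata6 with at most 2 mismatches.

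**Figure D3:**
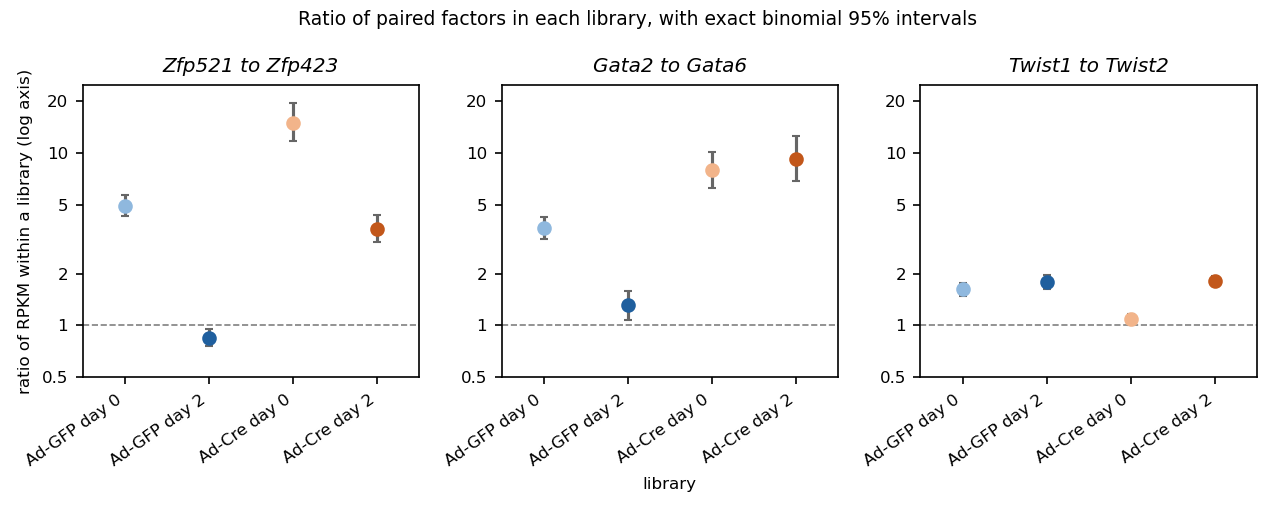
Ratio of RPKM of Zfp521 to Zfp423, Gata2 to Gata6 and Twist1 to Twist2 within each library, on a log axis, with exact binomial 95% intervals as bars and a dashed line where the members of a pair are equal. The ratio of Zfp521 to Zfp423 ran from 0.850 to 15.0 and that of Gata2 to Gata6 from 1.31 to 9.24, while that of Twist1 to Twist2 stayed between 1.08 and 1.81.

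Twist1 and Twist2 are close paralogs that keep mesenchymal cells undifferentiated. The 150 coding bases in which they are most alike, bases 361 to 510 of the Twist1 and 223 to 372 of the Twist2 coding sequence in GENCODE vM1, are shown because they bear on whether reads of this length tell the genes apart. Capitals mark the 15 bases that differ.
Twist1: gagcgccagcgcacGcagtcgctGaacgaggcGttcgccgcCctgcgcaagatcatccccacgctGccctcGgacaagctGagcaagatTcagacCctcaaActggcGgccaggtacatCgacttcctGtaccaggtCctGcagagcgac
Twist2: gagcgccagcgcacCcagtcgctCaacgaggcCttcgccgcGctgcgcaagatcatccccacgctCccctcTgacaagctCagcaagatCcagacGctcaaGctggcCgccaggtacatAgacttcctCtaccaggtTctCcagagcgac
All 50 codons encode the same residue in both genes, while the differing bases leave no shared run over 23 bases in this stretch. The most alike window of 50 bases along the whole transcripts matched at 47 positions, and none of 1567 windows matched with at most 2 mismatches. Meox1 and Meox2 likewise shared no such window.

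Twist1 (NM_011658; chromosome 12, 34642536 to 34644682, plus strand) had 1430 and 1501 reads in control cells and 1614 and 2734 in MLL4-deficient cells. The Ad-Cre library of day 2 was the highest of the 4, and the 2 day 0 libraries, at 51.0 and 50.7 RPKM, did not differ beyond counting error (log2 ratio −0.01, interval −0.11 to 0.10). Its log2 day ratio, day 2 over day 0, was −0.35 in control cells (−0.45 to −0.24), or −0.15 with the trend divided out. In MLL4-deficient cells it was 0.87 (0.78 to 0.96). Twist2 (NM_007855; chromosome 1, 93698038 to 93744605, plus strand) had 711 and 677 reads in control cells and 1198 and 1218 in MLL4-deficient cells (31.5, 22.4, 46.8 and 51.5 RPKM). Both Ad-Cre libraries lay above both Ad-GFP libraries, with log2 ratios of 0.57 at day 0 (0.44 to 0.71) and 1.20 at day 2 (1.06 to 1.34). The day ratio of Twist2 was −0.49 in control cells (−0.64 to −0.34) and 0.14 in MLL4-deficient cells (0.02 to 0.25).

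Both genes have short transcripts rich in GC, 1630 and 1312 bases of exon with 59.7% and 57.4% GC, the kind of transcript that was high in the Ad-Cre library of day 2 as a whole. Dividing out the trend left a log2 ratio of MLL4-deficient to control cells at day 2 of 0.42 for Twist1, from 1.22, and 0.48 for Twist2, from 1.20. The day ratio in MLL4-deficient cells became 0.28 for Twist1 and turned to −0.69 for Twist2, so the direction of Twist2 with day in MLL4-deficient cells depended on this division. At day 0, where no such shift was present, Twist2 was 1.49-fold higher and Twist1 1.01-fold lower in MLL4-deficient cells, and the ratio of Twist1 to Twist2 was 1.62 (1.48 to 1.77) in control and 1.08 (1.01 to 1.17) in MLL4-deficient cells.

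With day, 12.7% of all genes were called lower and 8.38% higher in control cells, and 10.2% and 9.14% in MLL4-deficient cells. Of 13 Twist relatives and partners, 8 were expressed, and 0 were called with day in either kind of cells, with list medians of −0.70 and 0.26 in control and MLL4-deficient cells. Division by the trend gave 1 lower in control cells (Snai2) and 1 higher in MLL4-deficient cells (Tcf4). The related factors Hand1, Hand2, Tcf15, Msc and Tcf21 were at or near 0, the highest being 0.0598 RPKM. At day 0, 1 of 8 (Scx) was lower in MLL4-deficient cells, where 3.67% of all genes were called lower and 1.83% higher. At day 2, 3 of 8 were higher in MLL4-deficient cells, namely the E protein Tcf4 and the repressors Snai1 and Snai2, and 2 were lower, the E protein Tcf12 and Zeb1. Among all genes, 8.81% were called higher and 9.88% lower at day 2. After division by the trend, Tcf4 and Snai2 kept their call and Snai1, Tcf12 and Zeb1 lost theirs. Snai1, a repressor of epithelial genes, lay at 78.1 and 41.5 RPKM in control cells and 83.5 and 158 RPKM in MLL4-deficient cells, and its log2 ratio at day 2 was 1.93, or 1.11 with the trend divided out.

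Tbx15 (NM_009323; chromosome 3, 99044304 to 99158182, plus strand), a T-box factor of limb mesenchyme and adipose depots, had 1214 and 1111 reads in control cells and 1223 and 1899 in MLL4-deficient cells (19.8, 13.6, 17.6 and 29.5 RPKM). The Ad-Cre library of day 2 was the highest and the Ad-GFP library of day 2 the lowest. Its log2 day ratio was −0.55 in control cells (−0.67 to −0.43), or −0.77 with the trend divided out. In MLL4-deficient cells it was 0.75 (0.64 to 0.85), or 1.11 with the trend divided out. As deposited, these differed by 1.30 (1.14 to 1.45). Unlike the Twist pair, its transcript of 3567 bases has 48.2% GC, and division by the trend raised the difference to 1.88 and the log2 ratio of MLL4-deficient to control cells at day 2 from 1.12 (1.02 to 1.23) to 1.73. At day 0 that ratio was −0.17 (−0.29 to −0.06). The adjacent gene Wars2, 1195 bases away, had a log2 ratio of MLL4-deficient to control cells of −0.49 at day 0 and −1.20 at day 2, the latter opposite in sign to that of Tbx15.

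A list of 22 other mesenchyme factors held T-box, homeobox and paired-box genes, the zinc-finger genes Osr1 and Osr2, and the forkhead genes Foxc1 and Foxc2. Of its 13 expressed genes, 5 were called lower with day in control cells (Prrx1, Prrx2, Six2, Osr1 and Osr2) and 0 higher. The shares of all genes there were 12.7% lower and 8.38% higher. After division by the trend, Prrx2 and Six2 were short of the cutoff there, at −1.26 and −1.27. In MLL4-deficient cells 4 of 14 were higher (Tbx2, Msx1, Osr1 and Osr2) and 0 lower, or 2 higher (Msx1 and Osr1) and 1 lower (Six2) with the trend divided out. As deposited, 9.14% of all genes were called higher there and 10.2% lower. At day 0, 2 of 13 (Prrx2 and Osr2) were lower in MLL4-deficient cells, or 1 (Osr2) with the trend divided out. As deposited, 3.67% of all genes were called lower at day 0 and 1.83% higher. At day 2, 8.81% of all genes were called higher in MLL4-deficient cells and 9.88% lower. Of the list, 5 of 14 (Tbx2, Prrx1, Msx1, Osr1 and Osr2) were higher in MLL4-deficient cells at day 2 and 0 lower. Of these, with the trend divided out, Tbx2, Prrx1 and Osr1 kept their call, Msx1 and Osr2 lost it at 1.01 and 1.03, and Tbx3 gained it at 1.52. Osr1, a zinc-finger factor of intermediate mesoderm and connective tissue, lay at 60.0 and 18.496 RPKM in control cells and 25.4 and 85.1 RPKM in MLL4-deficient cells. Prrx1, a limb and craniofacial mesenchyme factor, lay at 38.2 and 8.07 RPKM in control cells and 38.7 and 22.0 RPKM in MLL4-deficient cells. The median log2 ratio of the list was −0.63 and 0.75 with day in control and MLL4-deficient cells, and −0.09 and 0.70 between the cells at day 0 and day 2.

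Meox1 (NM_010791; chromosome 11, 101738824 to 101755688, minus strand), a homeobox factor of the somites, was counted at 192 reads on day 0 and 1 on day 2 in control cells, and at 47 and 4 in MLL4-deficient cells (5.06, 0.0197, 1.09 and 0.100 RPKM). Both day 2 libraries were near 0 and both day 0 libraries above 1 RPKM. Its log2 day ratio was −8.00 in control cells (−13.3 to −5.51) and −3.44 in MLL4-deficient cells (−5.38 to −1.99; −3.60 with the trend divided out), so the size of the former is known only within wide bounds. At day 0 Meox1 was 4.63-fold lower in MLL4-deficient cells (log2 ratio −2.21, interval −2.70 to −1.75). At day 2, with 4 reads against 1, the interval of −0.99 to 7.97 includes no difference. Meox2 (NM_008584; chromosome 12, 37835127 to 37908372, plus strand), its paralog of limb muscle and vessels, had 5, 0, 11 and 4 reads in the Ad-GFP libraries of day 0 and day 2 and the Ad-Cre libraries of day 0 and day 2. With 5 reads against 0, the interval of the log2 day ratio in control cells ended at −0.29, and those of the other 3 ratios of Meox2 included no difference. At this depth 3 reads correspond to between 0.0556 and 0.0743 RPKM.

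The gene next to Meox1, Etv4, an ETS factor that lies 92139 bases away, was the flanking gene with the widest change with day. It had 283 and 4 reads in control cells and 215 and 11 in MLL4-deficient cells, log2 ratios of −6.56 and −4.17. Of the 20 protein-coding genes that flank a member, some had at most 1 read in any library. These were Ferd3l and Hdac9, both beside Twist1, and 4933402J07Rik, Hrh4, Dnajb8, Sost and Agmo. Gm5160, beside Zfp521, was not found.

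At day 0, Zfp423, Gata6 and Meox1 were called lower in MLL4-deficient cells. So were 5 of the 15 preadipocyte and mesenchymal markers (Pdgfra, Ly6a, Cd34, Dlk1 and S100a4), with 0 of the 15 called higher. Over all genes, 3.67% were called lower and 1.83% higher. The log2 ratios of the other markers, short of the cutoff, ran from −0.69 to 0.71. Pdgfra, the receptor that marks fat progenitors, lay at 73.6 RPKM in control and 9.72 RPKM in MLL4-deficient cells, and the fibroblast marker S100a4 at 193 and 15.1 RPKM. The summed level of the 15 was 4372 and 4137 RPKM. The median log2 ratio of the list at day 0 was 0.07, and the part of these markers in the factors' values was not tested. In bulk RNA, fewer cells of a kind and less RNA per cell cannot be told apart. At day 2, 8.81% of all genes were called higher and 9.88% lower in MLL4-deficient cells. Of the 15 markers, 2 (Eng and Col1a2) were called higher and 2 (Ly6a and Dlk1) lower. With the trend divided out, 4 were called higher and 1 lower. With day in control cells, 10 of the 15 markers were called lower, and 8 of 14 in MLL4-deficient cells with 1 (Cd34) higher, or 6 lower and 1 higher with the trend divided out. As deposited, 12.7% of all genes were called lower with day and 8.38% higher in control cells, and 10.2% and 9.14% in MLL4-deficient cells. Col1a1 lay at 1247 and 65.8 RPKM in control cells and at 1010 and 142 RPKM in MLL4-deficient cells. The early fat cell genes Pparg, Cebpa, Fabp4, Adipoq, Plin1 and Lpl were all 6 called higher at day 2 in both kinds of cells and all 6 lower in MLL4-deficient than in control cells at day 2. Of the 4 early fat cell genes expressed at day 0, 1 (Pparg, the master regulator of fat cells) was already called lower in MLL4-deficient cells then, at a log2 ratio of −1.73, and Cebpa was called as well with the trend divided out, at −1.39. Fabp4, the fatty acid binding protein of fat cells, lay at 4.17 and 893 RPKM in control cells and 4.24 and 223 RPKM in MLL4-deficient cells.

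The difference of the day ratios (MLL4-deficient minus control) ordered the 8 factors with at least 20 reads in every library from Gata2 (1.88) through Tbx15 (1.30), Twist1 (1.22), Gata3 (1.21, interval 0.20 to 2.22), Zfp521 (0.89), Twist2 (0.63) and Zfp423 (0.39) to Gata6 (0.17). The counting intervals of Tbx15, Twist1 and Gata3 overlapped. Over 11294 genes with at least 100 reads in all and a read in every library, the median of this difference was −0.11 and the central 95% ran from −2.06 to 2.497, which holds the values of all 8. With the trend divided out, that of Twist2 was −0.22, that of Gata6 −0.05, that of Zfp423 0.37 and that of Twist1 0.42, while those of Tbx15, Gata3, Gata2 and Zfp521 were between 1.44 and 1.88.

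**Figure D4:**
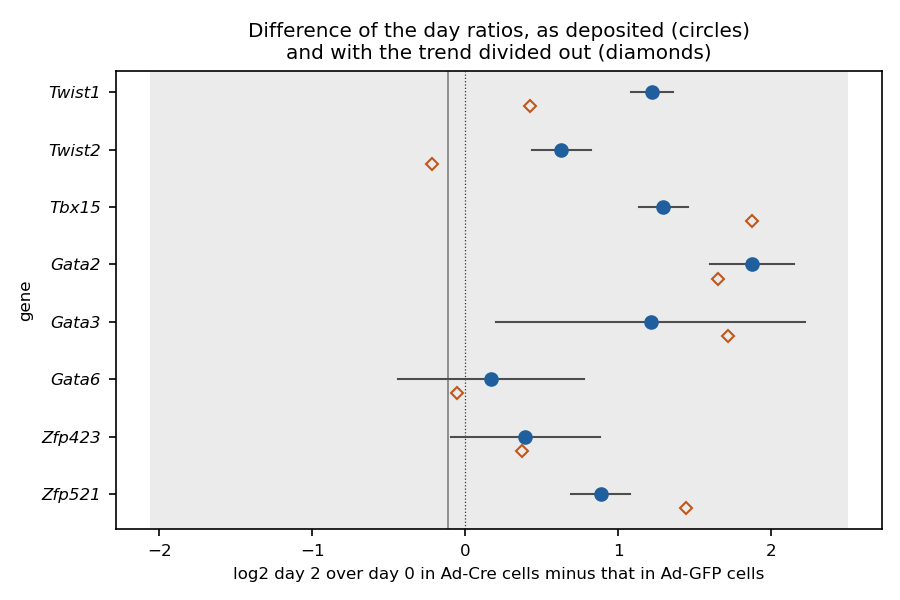
Log2 ratio of day 2 to day 0 in Ad-Cre cells minus that in Ad-GFP cells for the 8 factors with at least 20 reads in every library, with circles and bars for the deposited values and their exact conditional 95% interval, and diamonds for values with the trend over length and GC content divided out. The grey band is the central 95% of 11294 genes with at least 100 reads in all and a read in every library, and the solid line their median of −0.11. Gata2 is furthest right among the circles at 1.88, and the diamond of Twist2 lies left of 0 at −0.22.

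Promoters came from RefSeq on GRCm38.p6, 250 bases before to 50 bases after a start site. They were used for 6 of the 10 genes (8 promoters, with a pair each for Zfp423 and Gata2), and those of the other genes were not looked at. The first listed start site of each gene is shown for Zfp423, Gata2, Twist1 and Twist2. Zfp423 was lower in both Ad-Cre libraries. Gata2 had the widest difference of day ratios as deposited among the factors with at least 20 reads in every library. Twist1 and Twist2 were, as deposited, 2.32-fold and 2.29-fold higher in MLL4-deficient cells at day 2. With the trend divided out, their log2 ratios there were 0.42 and 0.48. Capitals mark matches on either strand to an E-box (CANNTG), the letters AGATAA of GATA factors, CCCNNGGG of EBF factors and TTNNGNAA of C/EBP factors.
Zfp423, chr8:87959546-87959845, minus strand: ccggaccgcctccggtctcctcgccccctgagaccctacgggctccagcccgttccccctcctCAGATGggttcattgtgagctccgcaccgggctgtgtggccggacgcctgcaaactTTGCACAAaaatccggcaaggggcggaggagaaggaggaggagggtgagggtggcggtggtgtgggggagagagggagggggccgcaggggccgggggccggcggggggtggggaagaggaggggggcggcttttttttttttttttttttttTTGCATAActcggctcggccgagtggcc
Gata2, chr6:88193641-88193940, plus strand: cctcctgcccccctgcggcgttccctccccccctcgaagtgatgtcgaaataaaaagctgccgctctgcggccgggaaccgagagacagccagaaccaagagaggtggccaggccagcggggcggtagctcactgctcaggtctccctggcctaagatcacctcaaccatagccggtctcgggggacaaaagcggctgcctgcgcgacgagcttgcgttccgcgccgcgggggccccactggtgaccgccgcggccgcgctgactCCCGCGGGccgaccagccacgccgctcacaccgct
Twist1, chr12:33957421-33957720, plus strand: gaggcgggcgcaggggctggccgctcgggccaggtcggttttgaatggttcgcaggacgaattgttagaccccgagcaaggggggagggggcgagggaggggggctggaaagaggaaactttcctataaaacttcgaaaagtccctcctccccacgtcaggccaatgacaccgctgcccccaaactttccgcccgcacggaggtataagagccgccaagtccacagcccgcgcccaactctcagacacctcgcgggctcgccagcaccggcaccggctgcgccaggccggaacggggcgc
Twist2, chr1:91801211-91801510, plus strand: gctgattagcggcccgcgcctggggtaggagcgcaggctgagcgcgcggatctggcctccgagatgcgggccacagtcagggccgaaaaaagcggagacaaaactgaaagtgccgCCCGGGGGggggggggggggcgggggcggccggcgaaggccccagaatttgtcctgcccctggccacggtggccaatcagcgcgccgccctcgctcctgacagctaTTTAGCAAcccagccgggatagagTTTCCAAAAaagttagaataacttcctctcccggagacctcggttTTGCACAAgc
Counted from the start site, this promoter of Zfp423 held an E-box at −187 and C/EBP letters at −131 and 23, that of Gata2 held EBF letters at 16, and that of Twist2 held EBF letters at −135 and C/EBP letters at −29, −5, −4 and 41, of which those at −5 and −4 overlap. The Twist1 window held none of the 4. The second promoter of Zfp423, not shown, held E-boxes at −226, −218 and −178, EBF letters at −28 and C/EBP letters at −162. That of Gata2 held an E-box at 18, EBF letters at −207 and −206, which overlap, and C/EBP letters at −118. Over all 8 promoters, 5 held an E-box, 5 the C/EBP letters, 4 the EBF letters and 0 the GATA letters, against 72.3%, 40.7%, 13.7% and 11.2% of 32851 promoters of the same length. The GC content of the 8 ran from 60.7% to 73.7%, with a median of 52.7% over all promoters. A match of letters is a description and not a binding site.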

How the data were processed

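The mRNA libraries were assigned to the 4 conditions from the sample labels. The reads, 50 bases long, were mapped by the authors to assembly NCBI37/mm9 with the Illumina Analysis Pipeline, and those within RefSeq exons were kept. For each of 29082 transcripts the authors deposited a raw read count and its RPKM, which relates the count to exon length and mapped reads. How reads with several matches or of either strand were treated is not given in the sources used here. GENCODE vM1 places other transcripts over Gata3, Gata6 and Meox1, and whether their reads were counted on these genes was not tested.

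Symbols came from a RefSeq table (97.8% of transcripts matched), with 1 transcript per gene, that with most reads over the 4 libraries. Positions and base composition were read from GENCODE vM1, which uses NCBI37/mm9. Promoters of Meox1 and Tbx15 were missing from the reference used, and those of Zfp521 and Gata6 were left out by choice. The annotated Meox2 transcript differs in length from that in the files, which leaves its GC content uncertain. Ratios are of deposited RPKM, with exact Clopper-Pearson 95% confidence intervals of the ratio of reads, exact Poisson intervals of levels and exact conditional intervals of odds ratios (scipy 1.17.1). Reads are not independent molecules, so these cover counting error only. A library with no read is drawn at the level of 3 reads. For Meox2 in Ad-GFP cells at day 2 the Poisson interval reached higher, to 0.0683 RPKM against 0.0556. Trends over exon length and GC content were fitted as medians of 20 bins in 5 rounds and tested on simulated data. TMM factors came from edgeR 4.0.16 (R 4.3.3), without any of its tests. Scripts ran under Python 3.11.15 with pandas 2.3.3, numpy 2.4.6 and, for plots, matplotlib 3.10.9.

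The members, the gene lists and the 11 alternative settings were chosen with earlier results of these data known. Genes of the other lists were named with values if they had at least 100 reads in both libraries together and a ratio past 2.5-fold, at most 4 per list by the control cells' day ratio, and the genes flanking each member were looked at. Genes named beside a count, Snai1, Ebf2, Tbx3, Pparg, Cebpa and Des with their values, and the singling out of Etv4, Wars2, Cnep1r1, Mib1 and Rbbp8 were chosen after their values were seen.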

Additional observations from a re-analysis of the deposited data

Results flagged for a closer look

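Some factors had ratios of opposite sign under the same contrast, with 1 library on each side, so the difference between the contrasts was not tested beyond counting error. Zfp521 and Gata2 were lower in MLL4-deficient than in control cells at day 0 and higher at day 2, and the log2 ratios differed by 0.89 and 1.88. Tbx15 was also lower in MLL4-deficient cells at day 0 and higher at day 2, and lower with day in control cells but higher with day in MLL4-deficient cells, by a difference of 1.30. Twist1 and Twist2 were lower with day in control cells and higher with day in MLL4-deficient cells, by differences of 1.22 and 0.63. Each of these differences uses all 4 libraries, among them the Ad-Cre library of day 2, whose ratios moved with transcript length and GC content. With that trend divided out, the differences were 1.44 for Zfp521, 1.65 for Gata2 and 1.88 for Tbx15. Those of Twist1 and Twist2 were 0.42 and −0.22.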

How the results depend on the processing

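With 1 library per condition, no library could be left out of a comparison, and no paired analysis was possible because the labels carry no replicate numbers. Of 104 counts recomputed under the alternatives, 89 stayed within 1.5 times and 15 moved. The count of factors called higher with day in MLL4-deficient cells, 0 as reported, was 1 with TMM factors, with the sum of counts as library size, with a 2-fold cutoff and with the trend divided out. The count called lower there, 1 as reported, was 2 without an expression threshold and 0 with 1 RPKM added to both sides. The count called lower in MLL4-deficient cells at day 0, 3 as reported, was 1 with 1 RPKM added. At day 2 the count called higher in MLL4-deficient cells, 0 as reported, was 4 with TMM factors and with the sum of counts, 5 with a 2-fold cutoff, and 2 without an expression threshold and with the trend divided out. The count called lower at day 2, 2 as reported, was 0 with a 4-fold cutoff and with 1 RPKM added, and 1 when the interval had to pass the cutoff. Shares over all genes are not given for the alternatives, so whether a moved count is particular to the factors was not tested. Of 235 single values, 36 moved by more than their counting interval, most of them with the trend divided out (14) or 1 RPKM added (11). Beyond the length and GC trend, the causes were not tested. Depth limits Gata3, Meox1 at day 2 and Meox2, for which a few reads decide the ratio.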
